A study of Mus musculus with 354 samples.

Results

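OR15156 is a strain of the Collaborative Cross, a set of inbred mouse lines in which each line has its own mosaic of the founder genomes, and 45 such strains were studied. The arrays were taken as those labelled with this strain, which gave 8 of the 354 arrays in the series, 4 from animals given tolvaptan (numbers 205 to 208) and 4 from animals given vehicle (numbers 201 to 204). The strain was picked from the 45 by its tolvaptan minus vehicle differences, with earlier results of these data known, so that contrast is described here, and a count of model calls in it is given as a description and supports nothing. The other 44 strains, with 171 tolvaptan and 175 vehicle arrays, share no array with it and were tested on their own. Liver RNA was taken 24 h after treatment from male mice 8 to 10 weeks old, after a week or so of acclimation and an overnight fast. Each array holds the liver of a different animal, so the spread between arrays includes that between animals. The study's title names liver damage caused by tolvaptan as its subject.

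Tolvaptan blocks the vasopressin V2 receptor, which in the collecting duct of the kidney raises water reabsorption. The drug is cleared largely by CYP3A enzymes of the liver, and raised liver enzymes in patients have led to monitoring of its use. Hepatocytes carry instead the V1a receptor, encoded by Avpr1a, and secrete most plasma proteins, including the acute phase proteins whose synthesis rises in inflammation. That secretory load passes through the endoplasmic reticulum (ER), whose chaperones and degradation factors are induced together when unfolded protein accumulates.

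Values are log2 levels from a one-colour Affymetrix array, so a difference of 1 is a 2-fold difference, and 14125 genes were bright enough to be analysed. The median level of all probe sets on a typical array was 2.89. Errors on differences are standard errors (SE) of a linear model fitted to all 354 arrays, with 4 animals per group in OR15156. Tolvaptan differences of the other 44 strains and their SE come from the same kind of model fitted to their 346 arrays alone. All 8 arrays carried the strain's own profile, with correlations to its other arrays from 0.924 to 0.971 and to any other strain of at most 0.301. In 19 other strains 34 arrays did not match their labelled strain. The hepatocyte genes Alb, Apoa1, Ttr, Cps1, Cyp2e1 and Hnf4a lay between 11.1 and 13.8 in all 8 livers. The arrays of animals 204 and 208 belonged to scan 1, and the other 6 to scan 3, and the model held the scan as a term. Animal 206 stood apart from the other 3 tolvaptan animals in several of the gene groups described here, and values without it are given where they move a group by much. For genes and lists these values are differences of deposited group means without the scan term, unlike the differences ± SE. In bulk liver, fewer cells of a type and less RNA per cell cannot be told apart.

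The differences between the groups in OR15156 were small. The median absolute difference over all genes was 0.123, against a median of 0.142 and a range of 0.0967 to 0.213 over the 45 strains. At 2-fold or more 19 genes differed, 10 higher and 9 lower under tolvaptan, where the 45 strains ran from 9 to 410 with a median of 52. The animals of this strain were also alike, with a residual SD of 0.218 against a median of 0.266 over the strains. As a description of a contrast known when the strain was picked, limma called 1 gene at a Benjamini-Hochberg adjusted p under 0.05 (0.00708%), and 229 passed an unadjusted 0.05. The 4 tolvaptan values lay above all 4 vehicle values for 199 genes (1.41%) and below them for 213 genes (1.51%).

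**Figure D1:**
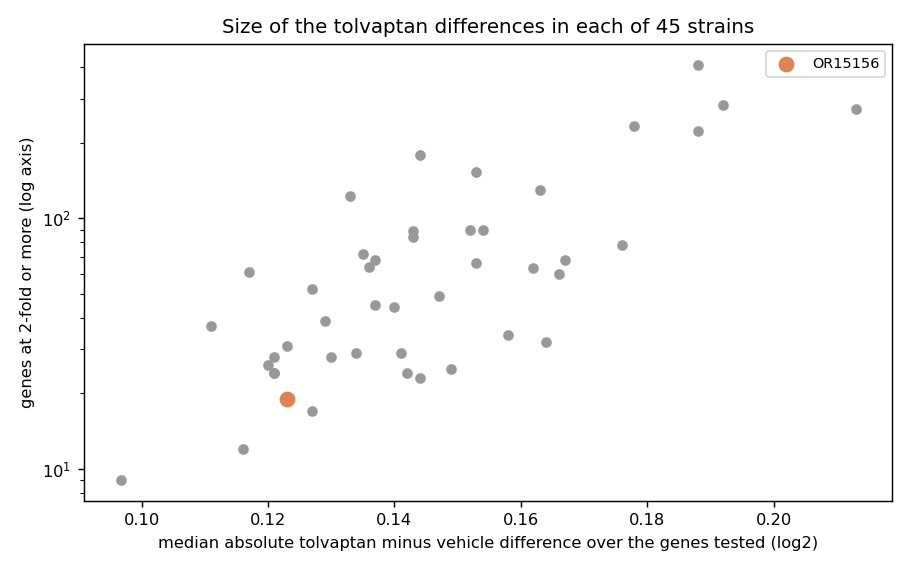
Each point is 1 of 45 strains, placed by its median absolute tolvaptan minus vehicle difference over the genes tested (log2) and by its number of genes at 2-fold or more (log axis). OR15156, at 0.123 and 19 genes, lies towards the lower left.

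That gene was Ppp1r42, which encodes a leucine-rich repeat protein that binds protein phosphatase 1. Its level in the vehicle animals was 2.24, 1.80, 2.75 and 2.07, and in the tolvaptan animals 3.19, 3.60, 3.17 and 3.05. The groups did not overlap, and the difference was 1.04 ± 0.20 (SE), or 2.05-fold. Vehicle animals lay at or below the typical array median. The 2 other probe sets of the gene gave 0.0706 and -0.138. Their vehicle means were 1.68 and 2.3, against 2.21 for the set used. In the other 44 strains the mean difference was 0.0391 ± 0.0301 (limma, adjusted p = 0.781). OR15156 differed from those strains by 0.999 ± 0.20, and 1 gene, the same, was called in that comparison (0.00708%), which holds the same 8 arrays and is no further support. The call in OR15156 was lost without animal 202, 204 or 206, with the strain's 8 arrays or scan 3 fitted alone, and with a filter at the 75th percentile, each leaving 0 genes. In the comparison with the other strains 0 were called without animal 201, 202, 204, 205, 206 or 207.

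The largest difference belonged to Slpi, which encodes a secreted inhibitor of neutrophil elastase and other serine proteases and is made in inflamed epithelia and liver. Its level was 5.28, 5.01, 4.79 and 5.19 under vehicle, a spread of 0.217 (SD, n = 4). Under tolvaptan it was 7.39 in animal 205, 9.62 in 206, 5.80 in 207 and 6.32 in 208. All 4 tolvaptan animals lay above all 4 vehicle animals, with animal 206 the highest. The difference was 2.21 ± 0.57, or 4.63-fold, and 1.43 without animal 206. No other of the 45 strains had a larger one. Across the other 44 strains Slpi rose by 0.426 ± 0.0858 (limma, adjusted p = 0.00228).

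Wfdc12, a second inhibitor with a whey acidic protein (WAP) domain, lies on chromosome 2 as Slpi does, with 8 protein-coding genes between them in assembly GRCm38.p6. Its vehicle levels were 5.66, 4.23, 4.41 and 3.23 and its tolvaptan levels 6.98, 8.69, 4.03 and 5.51. The groups overlapped, because animals 207 and 208 lay within the vehicle range. Animals 205 and 206 were the highest for both genes. The difference for Wfdc12 was 1.92 ± 0.59, and 1.13 without animal 206, and in the other 44 strains the gene rose by 0.366 ± 0.0871 (limma, adjusted p = 0.0157). When the arrays that did not match their strain were left out, the adjusted p in those strains was 0.0454 for Slpi and 0.12 for Wfdc12. With strains as the unit neither was called, at a limma adjusted p of 0.0763 and 0.229.

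Of the 199 genes higher in all 4 tolvaptan animals than in any vehicle animal, the 10 named here are the bright enough ones with the largest differences, and the others of these have varied roles. Lepr encodes the leptin receptor, whose level was 2.67, 2.81, 2.50 and 2.45 under vehicle and 3.27, 3.95, 3.59 and 3.21 under tolvaptan, a difference of 0.90 ± 0.61. Gnat2, the transducin subunit of cone photoreceptors, was 3.19, 3.15, 3 and 2.76 against 3.64, 5.11, 3.39 and 3.49. Its difference of 0.88 ± 0.40 was 0.48 without animal 206, which stood far above the other 3. Gnat2 also rose in the other 44 strains, by 0.257 ± 0.0609 (limma, adjusted p = 0.0157), a call lost without arrays off their strain (0.0951) and with strains as the unit (0.0957). Lepr, at 0.26 ± 0.094, was not called there (limma, adjusted p = 0.259). Papss2, which makes the sulfate donor used by sulfotransferases, went from 7.08, 7.31, 7.43 and 7.34 to 8.26, 7.93, 7.81 and 7.81, a difference of 0.66 ± 0.33. The rest of the 10 were Lztfl1 (0.76 ± 0.34), a regulator of traffic into cilia, Rbms3 (0.75 ± 0.23), an RNA-binding protein, Mall (0.73 ± 0.30), a membrane proteolipid, Smarca2 (0.68 ± 0.37), a chromatin remodelling ATPase, and the zinc finger gene Zfp764 (0.66 ± 0.31). Of the 10 genes higher, Slpi and Gnat2 were called in the other 44 strains, where 44 genes rose (0.312%).

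Among the 10 genes named as lower, none was called in the other 44 strains, where 20 genes fell (0.142%). Jun, a subunit of the AP-1 transcription factor, was 6.31, 6.29, 5.80 and 5.82 under vehicle and 4.63, 5.64, 5.20 and 5.33 under tolvaptan. Its difference was -0.85 ± 0.56, and its dimmer probe set gave -0.554. Klf4, a zinc finger factor of the immediate early type, was 4.29, 3.63, 3.67 and 3.68 against 3.31, 3.15, 3.12 and 2.86, a difference of -0.71 ± 0.32. G0s2, an inhibitor of the lipase that starts triglyceride breakdown, went from 10.84, 10.90, 11.47 and 10.70 to 10.24, 10.67, 9.76 and 10.40. Its groups were separated by a narrow gap and its difference was -0.71 ± 0.59. E2f2, an E2F factor of the cell cycle, was 3.87, 3.64, 3.53 and 3.55 against 2.53, 2.81, 2.81 and 3, a difference of -0.86 ± 0.28. The others were Gm14057 (-1.07 ± 0.41), Dennd11 (-0.91 ± 0.26), Zfp653 (-0.78 ± 0.23), Cpt1b (-0.76 ± 0.49), the carnitine palmitoyltransferase of muscle, Ezr (-0.73 ± 0.35), which links membranes to actin, and Mapkbp1 (-0.68 ± 0.22). The 20 named genes were chosen for groups that do not overlap, which fixes their sign in any subset of the animals.

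**Figure D2:**
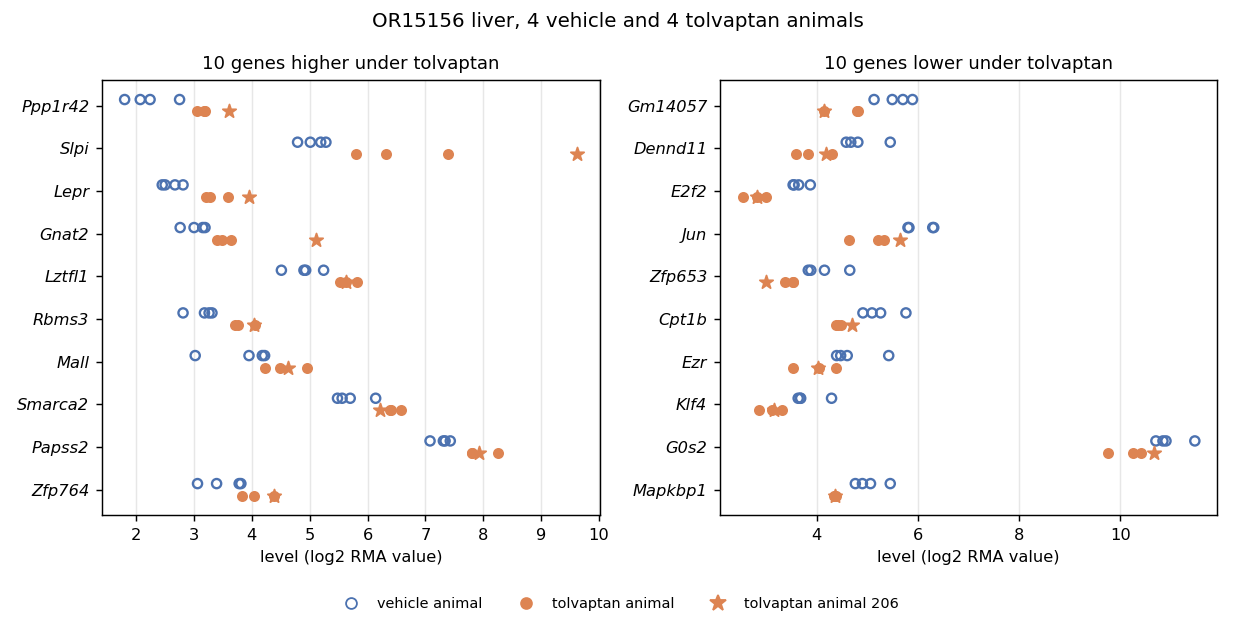
Log2 level of the 10 genes higher (left) and 10 lower (right) under tolvaptan in OR15156, with open circles for the 4 vehicle animals, filled circles for tolvaptan animals and a star for tolvaptan animal 206. The 4 values of each group do not overlap for any gene, and animal 206 stands far from its group for Slpi (9.62) and Gnat2 (5.11).

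The vehicle animals of this contrast are also those that give the strain's level without the drug. Vehicle Papss2 averaged 7.29, against a mean of 8.40 over the vehicle means of the other 44 strains, and the tolvaptan animals of OR15156 averaged 7.95. Vehicle Dennd11 averaged 4.88 against 3.82 in the other strains, and 3.97 under tolvaptan. The OR15156 averages are of deposited values, without the scan term. They share their 4 vehicle arrays with the differences above and are given with no test.

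Larger differences with overlapping groups were found for a further set of genes, chosen after their values were seen. Cd24a, a surface glycoprotein of biliary and immature cells, was 5.33, 4.69, 4.02 and 5.49 under vehicle and 3.09, 2.10, 2.72 and 4.14 under tolvaptan. Animal 208 alone reached into the vehicle range, and the difference was -1.87 ± 0.67. Elsewhere in the panel the mean difference was 0.027 ± 0.10 (limma, adjusted p = 0.977). Ero1a, an oxidase of the ER that is induced by low oxygen, was 4.82, 2.73, 3.17 and 2.53 against 4.28, 5.15, 4.29 and 5.03, a difference of 1.38 ± 0.54. It overlapped through vehicle animal 201. Mfsd2a, a lysophospholipid transporter induced by fasting, was 11.14, 11.02, 10.86 and 10.05 against 10.18, 9.11, 9.94 and 9.61, a difference of -1.06 ± 0.53.

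Genes of ER protein folding were mostly higher under tolvaptan, with much of the size in animal 206. Of 30 genes for ER chaperones and ER-associated degradation, 26 had a positive difference, with a median of 0.151 where all genes had -0.00321. Without animal 206, 18 of the 30 were positive and the median was 0.0544. Animal 206 was the highest of the 8 animals for 17 of the 30 genes, and for 13.9% of all genes. Vehicle animal 203 was the lowest of the 8 for 17 of the 30, and for 1555 of all 14125 genes. The values without animal 206 thus still hold 1 low vehicle animal. The mean level of the list was 8.98, 9.08, 8.74 and 9.04 under vehicle and 9.04 in animal 205, 9.64 in 206, 8.98 in 207 and 9.14 in 208.

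The promoters of part of this list carry the ER stress response element (ERSE), a bipartite site bound by NF-Y and by ATF6. Sequence upstream of 27 of the 30 genes was matched by symbol in RefSeq tables of build GRCm38.p6. The motif, CCAAT and CCACG with 9 bases of any kind between them, was searched on both strands in the 250 bases before each start. It was present for 10 of the 27 genes and in 0.113% of all 32851 promoters in the table. For 4 members described next, 90 bases around the match are shown 5′ to 3′ on the gene's strand, with the matched bases in capitals. The Hspa5 stretch is chr2:34771989-34772078 (plus strand), Hsp90b1 chr10:86705603-86705692 (minus), Pdia6 chr12:17266455-17266544 (plus) and Derl3 chr10:75893206-75893295 (plus, where the match reads in reverse).
Hspa5: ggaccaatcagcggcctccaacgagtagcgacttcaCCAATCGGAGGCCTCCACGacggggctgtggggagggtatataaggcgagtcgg
Hsp90b1: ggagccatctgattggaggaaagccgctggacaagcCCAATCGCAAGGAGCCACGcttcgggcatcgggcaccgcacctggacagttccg
Pdia6: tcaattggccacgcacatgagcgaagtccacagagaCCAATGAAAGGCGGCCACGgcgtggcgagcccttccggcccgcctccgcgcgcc
Derl3: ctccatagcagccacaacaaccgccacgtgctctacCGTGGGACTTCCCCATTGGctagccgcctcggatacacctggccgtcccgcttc

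These 4 genes did not behave alike in the 8 livers. Derl3, a factor that moves misfolded protein out of the ER, was 6.54, 6.79, 5.31 and 5.57 under vehicle and 6.50, 10.58, 6.15 and 6.07 under tolvaptan. Only animal 206 lay outside the vehicle range, and the difference of 1.27 ± 0.88 became 0.187 without it. Derl3 rose in the other 44 strains by 0.987 ± 0.133 (limma, adjusted p = 1.29e-08). Pdia6, a disulfide isomerase, was 9.36, 9.33, 9.11 and 9.36 against 9.46, 10.94, 9.46 and 9.62. All 4 tolvaptan animals lay above the vehicle range, by a small margin except in animal 206, and the difference was 0.58 ± 0.28 (0.22 without it). Hsp90b1, the ER member of the HSP90 family, was 9.08, 9.29, 9.38 and 10.07 against 9.80, 10.13, 10.00 and 10.29, a difference of 0.60 ± 0.36 that did not rest on animal 206 (0.58 without it). Hspa5, the main ER chaperone, was 9.88, 9.95, 9.69 and 10.49 against 10.31, 10.25, 10.23 and 10.67, a difference of 0.36 ± 0.35 and 0.40 without animal 206. For both Hsp90b1 and Hspa5 the groups overlapped through vehicle animal 204 of scan 1. In the other 44 strains Pdia6 rose by 0.192 ± 0.0428 (limma, adjusted p = 0.00849) as did Pdia4 by 0.189 ± 0.0463 (adjusted p = 0.0213), while Hsp90b1 (adjusted p = 0.812) and Hspa5 (adjusted p = 0.983) were not called. The calls of Pdia6 and Pdia4 were lost without arrays off their strain (limma, adjusted p = 0.0632 and 0.0951) and with strains as the unit (0.282 and 0.254).

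Acute phase genes varied more among animals than between the groups. Of 30 members 22 had a positive difference, with a median of 0.16, and 16 were positive without animal 206, with a median of 0.0115. The median was -0.0987 in the scan 1 pair, where Saa3 was also negative (-0.0742). Animal 206 was the highest of the 8 for 17 of the 30. Saa3, a serum amyloid A of macrophages and hepatocytes, was 8.04, 7.00, 6.31 and 7.31 under vehicle and 7.72, 10.01, 6.73 and 7.24 under tolvaptan. Its difference was 0.76 ± 0.80 and 0.067 without animal 206, where the other 44 strains rose by 0.909 ± 0.123 (limma, adjusted p = 1.29e-08). Lcn2, an iron-sequestering protein, reached 11.87 in animal 206 against 6.91 to 8.82 in vehicle animals and 5.77 in tolvaptan animal 207. Slpi, which belongs to this list, was the 1 member whose groups did not overlap. In the ATF4 list, whose genes answer to amino acid shortage and ER stress, 7 of 22 were positive (median -0.0561), and 4 without animal 206 (-0.136), which was highest for 9. Its member Psat1 was 4.87 in animal 206 and 1.99 to 2.34 in the other 3 tolvaptan animals, against 1.87 to 3.14 under vehicle.

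Cholesterol synthesis genes, which are induced by SREBP2 when sterol falls, followed the same animal. Of 17 members 14 had a positive difference, with a median of 0.182, and 10 were positive without animal 206, with a median of 0.0181. Sqle, the squalene epoxidase, was 4.78, 5.35, 4.99 and 5.88 under vehicle and 4.31, 7.44, 6.13 and 5.96 under tolvaptan. Animal 205 was the lowest of the 8 for 7 of the 17 genes and animal 206 the highest for 11. Msmo1, another enzyme of the pathway, had a difference of 0.86 ± 0.67.

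Genes of bile acid and drug transport were mostly higher in the tolvaptan animals other than 206. Of 23 members 19 had a positive difference, with a median of 0.198, and 21 were positive without animal 206, with a median of 0.286. The median was 0.0568 in the scan 1 pair. The list mean was 7.535, 7.627, 7.945 and 7.902 under vehicle and 7.955, 7.688, 8.103 and 8.025 under tolvaptan. Vehicle animal 201 was the lowest of the 8 for 7 of the 23, and for 2192 of all 14125 genes. In the other 44 strains their median was -0.00538, and 1 member, Slc17a1, was called (0.312% of all genes rose), but not without arrays off their strain or with strains as the unit. Slco1b2, the main uptake transporter for drugs and bilirubin, was 7.90, 8.30, 8.69 and 9.09 under vehicle and 8.87, 7.77, 9.66 and 9.65 under tolvaptan. Animal 206 was the lowest of the 8, and the difference of 0.49 ± 0.31 was 0.90 without it. Abcb11, the bile salt export pump, was 8.16, 8.24, 8.84 and 8.91 against 8.75, 9.06, 8.99 and 9.09, a difference of 0.44 ± 0.33. Slc17a3, a urate and organic anion transporter, was 8.64, 8.87, 8.96 and 9.19 against 9.20, 9.59, 9.22 and 9.53, and its groups were just apart (0.47 ± 0.32). Slc10a1, the sodium-dependent bile acid uptake carrier, had a difference of 0.26 ± 0.25. Abcc2, a canalicular export pump, had one of 0.33 ± 0.30.

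Genes of drug metabolism went in both directions. Cyp3a11, the main mouse CYP3A of liver, was 12.35, 12.73, 12.98 and 12.68 under vehicle and 13.04, 12.69, 13.22 and 12.85 under tolvaptan, with overlapping groups and a difference of 0.26 ± 0.31. Cyp2b10, the classic target of the receptor CAR, ranged from 4.86 to 7.60 under vehicle and from 5.66 to 6.76 under tolvaptan. Its difference of -0.12 ± 1.1 changed sign when vehicle animal 202 or tolvaptan animal 207 was left out and in the pair of scan 1. Of 26 targets of CAR and PXR 17 were positive (median 0.122), and 18 without animal 206 (median 0.249), and none had groups apart. Their member Cyp2c39 was 5.34, 4.19, 6.67 and 6.47 under vehicle and 6.62, 6.07, 6.36 and 6.92 under tolvaptan (0.83 ± 0.69). Cyp1a2, an AhR target of pericentral cells, was 11, 10.35, 10.32 and 11.03 against 10.20, 9.20, 10.22 and 10.59 (-0.62 ± 0.29, and -0.34 without animal 206). NRF2 targets, which answer to oxidants and electrophiles, were positive for 18 of 25 (median 0.129). Among them Gstm4, a glutathione transferase, went from 8.14, 8.03, 7.90 and 8.15 to 8.44, 8.77, 8.27 and 8.73 with groups apart (0.50 ± 0.35). Hmox1, the haem oxygenase often taken as a mark of oxidant stress, had a difference of -0.46 ± 0.42. Avpr1a, the hepatocyte vasopressin receptor, was 5.91, 5.33, 6.87 and 6.71 against 6.08, 6.97, 6.61 and 6.53, a difference of 0.34 ± 0.45 whose sign turned in the scan 1 pair.

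Genes that answer to glucocorticoids and to acute stimuli were mostly lower under tolvaptan, but their list means overlapped between the groups. Of 16 glucocorticoid-responsive genes 13 had a negative difference, with a median of -0.413, and the median was -0.397 without animal 206 and -0.105 in the scan 1 pair. The list mean was 8.90, 9.10, 8.57 and 8.01 under vehicle and 8.62, 8.25, 8.35 and 7.92 under tolvaptan. Vehicle animals 201 and 202 were the highest of the 8 for 5 and 7 of the 16 genes, and for 2610 and 1561 of all 14125. Per1, a clock gene that glucocorticoids induce, was 8.25, 7.79, 7.67 and 7.19 under vehicle and 7.55, 6.22, 7.25 and 6.92 under tolvaptan, a difference of -0.74 ± 0.54. Tat, tyrosine aminotransferase, was 12.13, 12.07, 11.38 and 10.72 against 11.47, 10.27, 11.15 and 10.72. Nfkbia, the NF-kB inhibitor, was the member with groups apart, at 8.69, 8.70, 8.63 and 8.65 against 8.28, 7.91, 8.04 and 8.62. Zbtb16, a zinc finger factor of the list, followed the scan in both groups. It was 5 and 4.91 in animals 204 and 208 of scan 1 and 7.32 to 7.59 in the other 6. Of 23 immediate early genes 15 were negative, with a median of -0.259, which was -0.117 in the scan 1 pair and -0.407 in scan 3. Vehicle animals 201 and 202 were each the highest of the 8 for 6 of the 23. The list mean ran from 5.19 to 5.67 under vehicle and from 5.11 to 5.34 under tolvaptan. Fos, the partner of Jun, was 4.10, 4.41, 3.95 and 3.44 against 3.03, 3.86, 2.84 and 2.66, a difference of -0.88 ± 0.52. In the other 44 strains the medians of these lists were 0.0135 and 0.0634, with no member called.

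Cell cycle genes were dim in all 8 livers. Of 25 members 18 had a negative difference, with a median of -0.145, and the mean level of the list was 3.65, 3.60, 3.65 and 3.63 under vehicle and 3.53, 3.48, 3.45 and 3.44 under tolvaptan. The means did not overlap, although no single member had groups apart. Among the 44 lists no other had means that did not overlap. Of all single genes 1.51% had their tolvaptan values below all vehicle values. The separation of the list means was not tested. Mki67, a nuclear protein of dividing cells, was 2.68, 3.78, 3.64 and 3.23 against 2.40, 2.70, 2.15 and 2.92 (-0.79 ± 0.35), values on both sides of the typical array median.

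Amino acid catabolism and the pericentral genes were lowest in animal 206. Of 33 genes of the urea cycle and amino acid breakdown 29 had a negative difference, with a median of -0.146 and of -0.0958 without animal 206. Animal 206 was the lowest of the 8 for 21 of them. Asl, argininosuccinate lyase of the urea cycle, was 12.50, 12.21, 11.99 and 11.70 under vehicle and 11.93, 11.14, 11.34 and 11.49 under tolvaptan (-0.62 ± 0.27). Across the rest of the panel 4 members of this list fell, where 0.142% of all genes did, but none was called with strains as the unit. Among the panel's falls in amino acid breakdown, Uroc1 stayed called without arrays off their strain (limma, adjusted p = 0.0238). Sardh (0.0553) and Gldc (0.148) did not. Pericentral hepatocyte markers, expressed around the hepatic central vein, had a median of -0.0867 that turned to 0.0938 without animal 206, which was lowest for 12 of 14. Oat, an ornithine aminotransferase of these cells, was 9.82 in animal 206 and 11.15 to 12.12 in the other 7.

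**Figure D3:**
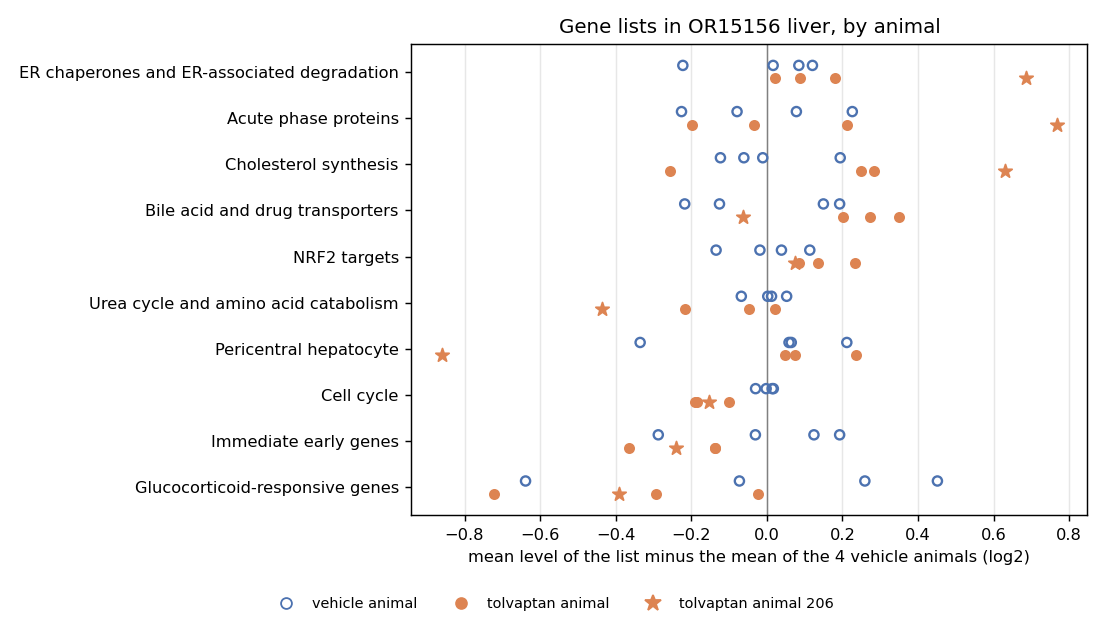
Mean log2 level of 10 gene lists in each OR15156 animal, minus the mean of the 4 vehicle animals for that list; symbols as in the plot of the leading genes. Animal 206 lies far right for ER chaperones, acute phase proteins and cholesterol synthesis and far left for pericentral genes. The cell cycle means do not overlap (3.60 to 3.65 against 3.44 to 3.53), though no single member had groups apart. Of all 44 lists no other had such means, and this was not tested.

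Markers of other cell types gave ranges that overlapped between the groups. The mean of 18 Kupffer cell and macrophage markers was 6.22 to 6.72 under vehicle and 6.21 to 6.55 under tolvaptan. The 20 sinusoidal endothelial markers averaged 5.95 to 6.16 and 5.82 to 6.06, and the 12 cholangiocyte markers 4.15 to 4.78 and 4.14 to 4.33. The 13 neutrophil markers averaged 3.26 to 3.81 and 3.18 to 3.65, with 6 of them below the typical array median. Of 16 T and NK cell markers 12 lay below that median, as did 9 of 11 for exocrine pancreas. S100a8 and S100a9 of neutrophils were not higher in animal 206 (2.92 and 3.53) than in vehicle animals (2.60 to 4.88 and 3.03 to 5.12). The part of other cell types in the gene groups above was not tested.

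The other lists are given by their counts. Heat shock chaperones were positive for 11 of 15 (median 0.159), and for 13 with a median of 0.171 without animal 206. Positive differences were also found for 12 of 20 fatty acid synthesis genes (median 0.139) and 13 of 20 male-biased genes that depend on growth hormone (0.0872, and -0.121 in the scan 1 pair). Clock genes were negative for 11 of 19 (median -0.11), and their median was -0.0107 without animal 206, which was lowest for 8. MHC class II genes were negative for 7 of 10 (median -0.121), but 6 were positive without animal 206 (0.0175), which was lowest for 6. Interferon-responsive genes were negative for 17 of 26 (median -0.0772), with a median of 0.233 in the scan 1 pair. Erythroid markers were negative for 6 of 6 (median -0.0864), and 1 was positive without animal 206 (-0.0281). PPAR-alpha targets (10 of 25 positive), p53 targets (9 of 18), hypoxia genes (7 of 17), osmotic response genes (8 of 15) and NF-kB genes and cytokines (12 of 27) were mixed, as were AhR targets (3 of 6). The respiratory chain (26 of 55 positive), the proteasome (17 of 28), ribosomal proteins (7 of 13), complement and coagulation (17 of 31), secreted liver proteins (15 of 25), gluconeogenesis (9 of 17), bile acid synthesis (13 of 21), haem and iron (12 of 22) and female-biased genes (8 of 15) had medians between -0.00201 and 0.0758. Markers of periportal hepatocytes averaged 10.4 to 10.6 under vehicle and 10.2 to 10.5 under tolvaptan, stellate cells 4.7 to 4.82 and 4.56 to 4.87, B cells 2.76 to 2.89 and 2.7 to 2.94, erythroid cells 5.04 to 5.3 and 4.86 to 5.2, and adipocytes 3.88 to 4.34 and 3.96 to 4.33.

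The genes that responded across the other 44 strains mostly had the same direction in OR15156. Of 14125 genes limma called 64 in those strains, 44 that rose and 20 that fell. In OR15156 57 of the 64 (89.1%) had the same sign, where 58.8% of all genes did. The count was 49 without animal 206 and 43 in the scan 1 pair. Among them 7 had OR15156 groups that did not overlap, 4 higher and 3 lower under tolvaptan where 1.41% and 1.51% of all genes were. In size 38 differed by more in this strain than in the others, with a median of 0.198 against 0.153. A difference from 4 animals per group has a wider error than a mean over 44 strains, which raises absolute sizes. These sizes therefore do not compare the strength of the response. Over all genes the median size in OR15156 was 0.123. The 64 depended on which arrays and which unit of spread entered. Without the arrays that did not match their strain 25 were called, 20 of them shared, and with strains as the unit 16 were called, 15 of them shared.

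A score of the 44 genes that rose minus the 20 that fell summarised each animal. It was -1.49, -1.62, -1.75 and -1.52 in the vehicle animals and -1.25, -0.478, -1.37 and -1.27 in the tolvaptan animals. All 4 tolvaptan animals scored higher than any vehicle animal, 3 of them by a little and animal 206 by much. The difference was 0.504, and 0.30 without animal 206. Alas1, the first enzyme of haem synthesis, went the other way in this strain. Its vehicle levels were 11.16, 10.59, 11.29 and 10.11 and its tolvaptan levels 11.27, 10.25, 10.82 and 9.47, with overlap and a difference of -0.34 ± 0.49, where the other 44 strains rose by 0.363 ± 0.0753 (limma, adjusted p = 0.00313). Tfrc, the transferrin receptor, was 6.96, 7.31, 6.65 and 6.85 against 7.77, 7.46, 7.12 and 7.73, a difference of 0.58 ± 0.41, and rose elsewhere by 0.245 ± 0.0627 (limma, adjusted p = 0.0321, and 0.0951 without arrays off their strain). Fam220a was 5.97, 6.24, 5.90 and 5.65 against 5.55, 5.36, 5.28 and 5.40 with groups apart (-0.54 ± 0.21), and was lower elsewhere too, at -0.139 ± 0.0325 (limma, adjusted p = 0.013, and 0.12 with strains as the unit).

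**Figure D4:**
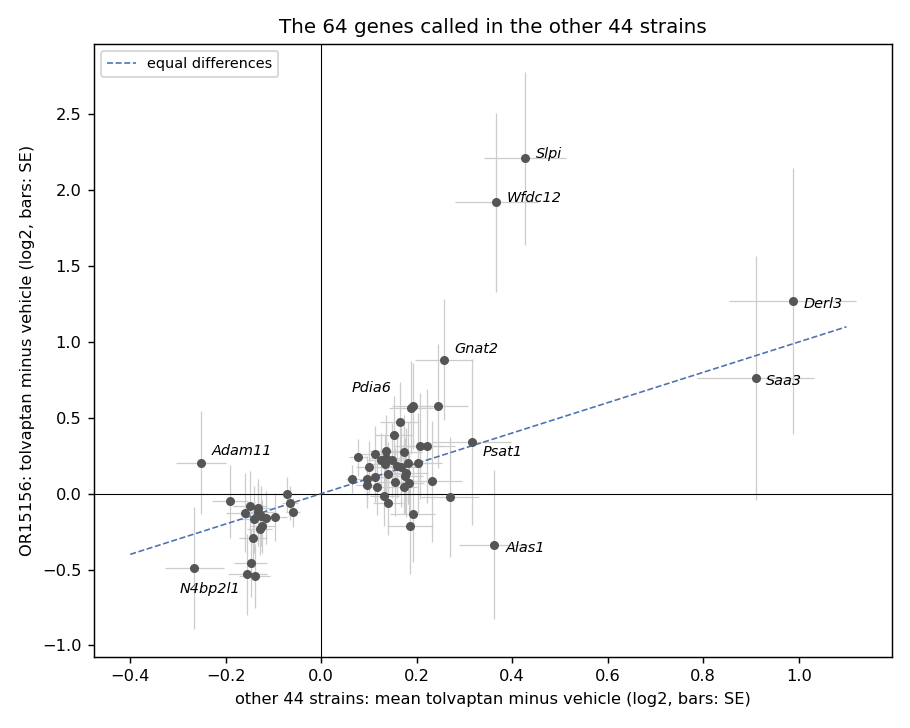
Tolvaptan minus vehicle (log2) for the 64 genes called in the other 44 strains, with the mean of those strains on the horizontal axis and OR15156 on the vertical axis; bars are SE and the dashed line marks equal differences. Of the 64 genes 57 have the same sign on both axes, and Slpi and Wfdc12 lie far above the line.

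Without the drug, the livers of OR15156 differed from the panel in many genes, in both directions. Against the mean vehicle level of the other 44 strains limma called 349 genes higher (2.47%) and 246 lower (1.74%), 190 of them by 2-fold or more. Transcript level and the hybridisation of each strain's own sequence to the probes cannot be told apart in this comparison. Levels given below for other strains are model values referred to scan 1, while those of OR15156 animals are as deposited. These scales differ by the scan term, which the differences ± SE take into account. When 1 vehicle animal was left out the total of 595 became 331 without animal 201, 334 without 202, 379 without 203 and 337 without 204. With strains as the unit of spread 0 were called by limma, with 407 at an unadjusted p under 0.05. The smallest adjusted p by that unit among the 20 genes named next was 0.155, for Sult1a1.

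The lowest genes against the panel include defence and detoxification genes. Iigp1, an interferon-induced GTPase that attacks the vacuoles of intracellular parasites, was 2.61, 2.96, 2.30 and 2.52 in vehicle animals, below the typical array median in 3 of 4. In the model the other strains averaged 9.59, the lowest of them 2.74, and the difference was -6.93 ± 0.50 (limma, adjusted p = 1.61e-29). The tolvaptan animals were as low, at 2.44 to 2.76. Their level is not part of this difference, but their arrays entered the model's spread and scan terms. Sult1a1, the phenol sulfotransferase, was 6.96 to 7.63 under vehicle and 5.44 to 7.16 under tolvaptan. The model levels of the other strains ran from 7.79 to 11.5, and the difference was -3.14 ± 0.30 (limma, adjusted p = 4.64e-18). Ugt3a2, a glycosyltransferase, differed by -5.08 ± 0.84 and Cyp2c38, a cytochrome P450, by -4.50 ± 0.52, and each was the lowest of the 45 strains. Abhd1, Ctse, Cttn, Defb1, Rdh16f2 and Orm3 differed by between -3.29 and -2.81. For Cttn the probe set used averaged 3.69 in the vehicle animals of OR15156, and its others 4.2 and 6.31. For Defb1 the set used averaged 2.19 and the other 3.04. Levels of these other probe sets in the panel are not given here. Abcc2, the canalicular export pump, was also low (-1.02 ± 0.22, limma, adjusted p = 0.000457).

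The highest genes against the panel were led by Cyp46a1, a cholesterol 24-hydroxylase best known from neurons. It was 10.08, 9.23, 11.21 and 10.16 in vehicle animals against a mean of 6.23 elsewhere, a difference of 3.97 ± 0.48 (limma, adjusted p = 5.71e-12), and 9.99 to 10.58 in tolvaptan animals. Pttg1, the securin that guards chromosome separation, was 8.64, 8.53, 8.45 and 8.55 against 4.92 elsewhere (3.59 ± 0.34, limma, adjusted p = 2.44e-18), with another strain as high as 9.06. Hamp2, a second hepcidin gene, was 11.89 to 13.12 against 9.81 (2.83 ± 0.70, limma, adjusted p = 0.00362). Myom3, 9130409I23Rik, Krt23, Nlrp12, H2-Bl, Akr1c18 and Cxcl14 were higher by between 2.65 and 3.51. For none of the highest genes named here was OR15156 the top of the 45 strains. Counted from the lowest strain, its rank ran from 35 for H2-Bl to 44 for Myom3, 9130409I23Rik and Krt23. For Cxcl14, a chemokine, vehicle animal 202 was at 5.41, close to the mean of the other strains, and the other 3 between 8.19 and 8.44.

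**Figure D5:**
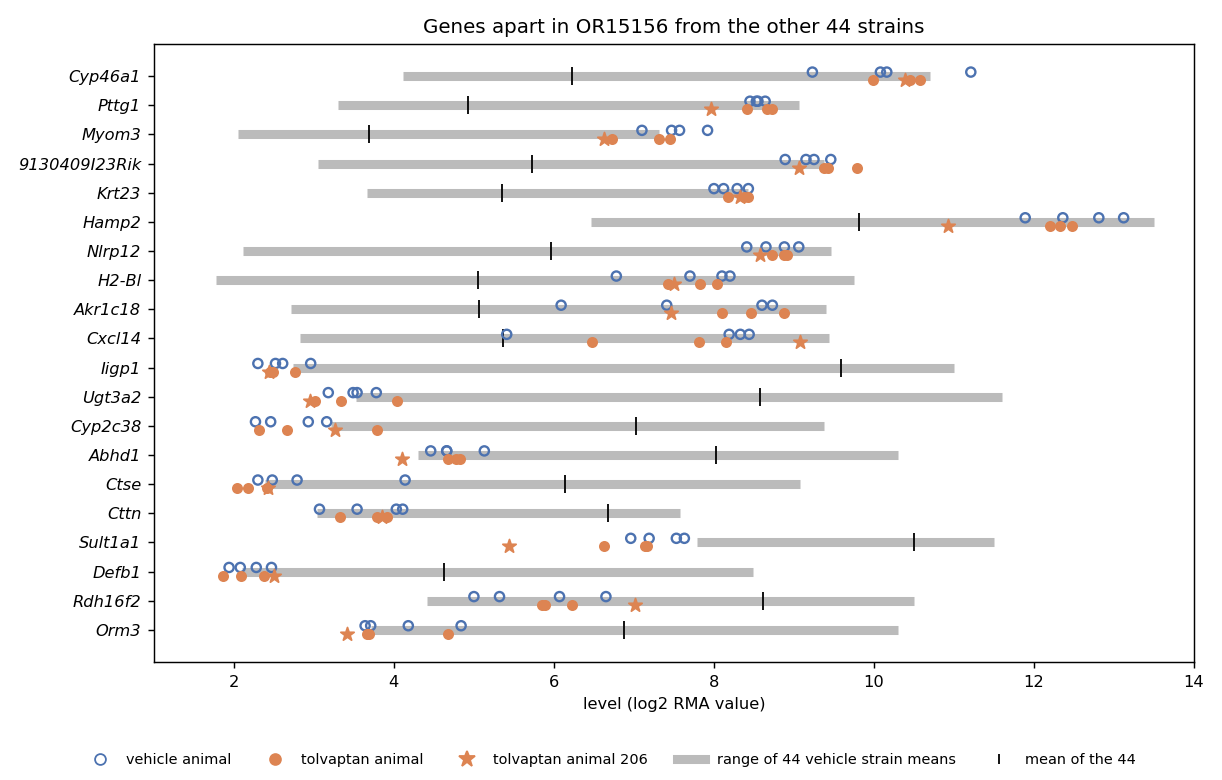
Log2 level of the 10 highest and 10 lowest genes of OR15156 vehicle liver against the panel: open circles are the 4 vehicle animals, filled circles and the star the 4 tolvaptan animals, grey bars the range of the vehicle means of the other 44 strains and ticks their mean. For Sult1a1 all 8 animals lie below the range of the other strains.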

How the data were processed

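RNA from the livers of 354 mice was hybridised to Affymetrix HT_MG-430 PM arrays, 1 animal to each. The deposited log2 values were made by the authors with RMA in Affymetrix Expression Console, per the submitters' processing notes. Of 42597 probe sets 27691 had 1 gene symbol, 493 several and 14376 none, beside 37 controls, and 27494 matched RefSeq by identifier. Each gene took its brightest probe set, and genes above the array median in at least 4 arrays were kept (14125 of 16670). limma 3.58.1 in R 4.3.3 fitted 1 mean for each strain and treatment with the scan as a term, two-sided, with Benjamini-Hochberg adjustment over all genes and a threshold of 0.05, and was tested on simulated data. The comparison in the other 44 strains used their 346 arrays alone. Strain identity was checked on 500 probe sets, with a correlation limit of 0.5.

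Members and lists were chosen with earlier results of these data known. Up to 10 genes per direction were named, those called in the model first and then those with the largest difference and groups apart whose higher group mean was above the typical array median. Members of 44 gene lists were taken by symbol. The number of arrays limits the precision. A dose was not used, because the label gives no unit. Alternatives were other filters, scalings and weights, the strain's own arrays alone, arrays off their strain left out, strains as the unit, and leaving out each animal or strain.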

Additional observations from a re-analysis of the deposited data

Results flagged for a closer look

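In 60 groups of 4 animals, 4 held a value whose gap to the nearest other, as a share of the group's range, exceeded Dixon's critical value, which chance does in about 1 group in 20. For 3 of them the value was that of tolvaptan animal 206, which had 5.11 for Gnat2 (3.39 to 3.64 in the other 3), 10.58 for Derl3 (6.07 to 6.50) and -0.478 for the score of genes called in the other 44 strains (-1.37 to -1.25). The other was vehicle animal 201, with 4.29 for Klf4 (3.63 to 3.68). Ppp1r42 was set apart by its difference between OR15156 and the other 44 strains, 0.999 ± 0.20. The strain was picked with its tolvaptan contrast known, so this value is a description.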

How the results depend on the processing

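The 1 gene called in OR15156 became 0 when its 8 arrays were fitted alone (954 at an unadjusted p under 0.05), 0 in scan 3 alone (1351) and 0 with a filter at the 75th percentile, and 4 with array weights, all by limma. Leaving out 1 animal gave 0 to 1, with 0 without animal 202, 204 or 206. The difference from the other 44 strains gave 0 to 1 called, with 0 without animal 201, 202, 204, 205, 206 or 207. The 64 genes called in the other 44 strains became 25 without arrays off their strain and 16 with strains as the unit. Leaving out 1 strain gave 38 to 97, with 97 without OR13421, 40 without OR5119 and 38 without AU8033. The 595 vehicle genes became 894 without arrays off their strain (594 shared), 0 with strains as the unit, and 331 to 379 when 1 vehicle animal was left out. The score difference of 0.504 became 1.37 with genes at a fold of at least 1.2, which left 7 that rose and 1 that fell. On that score animal 206 was at -0.0833 and the other tolvaptan animals between -2.99 and -2.39. Vehicle animals lay between -3.57 and -3.01. The cause of these changes was not tested. Of 406 alternative values for named genes 400 moved by less than 1 SD and 6 by more, and of 484 list medians 452 and 32. No paired analysis was possible because every animal number occurs once.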
